A study of Mus musculus with 2 samples.

Results

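Genes of the leukemia inhibitory factor (LIF) and Stat3 pathway were followed in maps of histone H3 trimethylated at lysine 4 (H3K4me3), a mark of active and poised gene starts. The genes were chosen by symbol (Lifr, Il6st, Jak1, Stat3, Socs3 and Pim1), and all 6 were among the 21536 protein-coding genes analysed. On the genome build mm10 the planned rule took the 5′ end of each gene. By it 5 of the 6 carried an H3K4me3 peak in both replicates, beside 66.9% and 66.8% of all genes. Lifr had none there. At RefSeq starts, a rule added after seeing the data, all 6 carried a peak in both, beside 68.6% and 68.4% of the 17492 genes with such starts. Each of these 6 signals lay above the median of marked genes in both replicates. On the older build mm9 Lifr, Il6st and Stat3 lay below the median. On mm10 Jak1, Stat3 and Socs3 had the strongest peaks, while the domains ranged from a compact 1908 bp at Jak1 to 9184 bp at Socs3, where the mark ran over the entire gene. Over the body of Lifr 11 weak further peaks were found, of which 2 belong to its promoter domain.

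LIF keeps mouse embryonic stem cells in a self-renewing state in culture. It binds the receptor Lifr, which pairs with the shared subunit Il6st (gp130), and the JAK kinases held on the receptor chains then phosphorylate the transcription factor Stat3. Phosphorylated Stat3 enters the nucleus and activates its target genes, among them Pim1 and the feedback inhibitor Socs3.

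Chromatin immunoprecipitation sequencing (ChIP-seq) with an antibody to H3K4me3 was run on E14TG2a.4, a male embryonic stem cell line of mouse strain 129/Ola that derives from an embryo of 3.5 days. There was 1 group of 2 biological replicates, both from this 1 line and donor, so the spread between them says nothing of other lines, and no comparison of conditions or test was possible. The culture medium, including whether it held LIF, is not stated in any source read here, and control libraries were not analysed here. H3K4me3 is no measure of expression, and neither transcripts nor proteins were measured.

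The files are lists of peaks: on mm10 1 list per replicate (86781 and 83750 peaks), a pooled list (98928) and a replicated list (62128) made from both replicates, and on mm9 3 lists of broader regions. The pooled and replicated lists hold the same 2 samples again and are no further replicates. Read depth is unknown, so how far it limits weak peaks cannot be said, and a place without a peak is one where none passed the authors' threshold. Of the 10 embryonic stem cell markers listed for a check of the label, such as Pou5f1 and Sox2, 9 had a peak within 1 kb of the gene's 5′ end. All 10 had one at that end or at a RefSeq start. Their signals ran from 37.7 at Nanog to 69.4 at Pou5f1, apart from Esrrb, marked at its RefSeq start only, at 18.8. Peaks stood at 4 of 8 fibroblast markers, with signals of at most 23.4, and at 2 of 4 blood markers, at most 8.77. Esrrb thus lay below the strongest fibroblast marker. Beside these counts, 66.6% of all genes had a peak at the 5′ end. The part of other cells in the results below was not tested.

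A gene counted as marked where a peak reached within 1 kb of its start, and its signal was the highest value there, the authors' ratio of ChIP over control for that peak. By the 5′ end of the gene table, 5 of the 6 genes were marked in the replicated list, beside 66.6% of all genes, and the same count held in replicate 1 (66.9% of all genes) and replicate 2 (66.8%). The gene without a peak was Lifr, whose 5′ end in that table lies 1819 bp from the nearest peak edge, itself a weak peak. By every start in the RefSeq promoter table, a rule added after seeing the data, all 6 were marked, beside 68.2% of the 17492 genes in that table (68.6% and 68.4% in replicates 1 and 2). With shares this high among all genes, the count alone says little of these 6. Values of the 6 genes below are at the RefSeq starts unless stated.

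Lifr, the LIF-binding receptor chain, lies on the plus strand of chromosome 15 (mm10 7090610 to 7197489, 106.88 kb). RefSeq gives it starts at 7129572 and 7140542. The strong peak was at the first of these, at chr15:7128085-7131699, with a signal of 49.9 in replicate 1 and 48.4 in replicate 2 (mean 49.2 ± 1.07, SD, n = 2) and 56.7 in the replicated list. The later start had only a weak peak, with signals of 4.74 and 3.70 in the replicates and 4.31 in the replicated list. The replicates thus placed the mark at the same start, over 10 times stronger than at the other. The bases before both starts are shown because they differed in CpG content (CpG in capitals) as they did in signal, with 40 CpG in the 237 bases before the marked start and 3 in the 250 bases before the other. Bases that a vM1 exon covers are left out here and below.
Lifr, start with the strong peak, chr15:7129322-7129558, plus strand: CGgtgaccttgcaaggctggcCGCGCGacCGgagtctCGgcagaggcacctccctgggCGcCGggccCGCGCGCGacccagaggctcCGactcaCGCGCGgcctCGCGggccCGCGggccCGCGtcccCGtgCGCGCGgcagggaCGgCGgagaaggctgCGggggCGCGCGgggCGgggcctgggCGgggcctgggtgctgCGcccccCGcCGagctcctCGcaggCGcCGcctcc
Lifr, later start, chr15:7140292-7140541, plus strand: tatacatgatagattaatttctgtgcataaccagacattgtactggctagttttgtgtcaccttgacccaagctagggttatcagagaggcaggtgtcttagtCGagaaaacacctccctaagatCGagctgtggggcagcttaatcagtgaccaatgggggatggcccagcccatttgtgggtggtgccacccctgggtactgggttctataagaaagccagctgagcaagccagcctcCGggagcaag
These and the other promoters come from RefSeq (GRCm38.p6, mm10). Over the 300-base promoter windows, GC content was 81.3% at the strongly marked Lifr start and 53.3% at the other, against a median of 56.3% for 21263 promoters of protein-coding genes. The ratio of observed to expected CpG was 1.07 and 0.188, against a median of 0.567.

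Il6st, the signal-transducing subunit that Lifr shares with other receptors of the interleukin 6 family, lies on the plus strand of chromosome 13 (112464070 to 112506860). Its peak at chr13:112462748-112467235 was 4488 bp wide and had signals of 47.5 and 50.002 in the replicates (48.7 ± 1.79, SD, n = 2) and 55.8 in the replicated list. Its domain, that is its peaks joined across gaps under 1 kb, spanned 6752 and 6423 bp in the replicates and 6750 bp in the replicated list. The domain reached 3043 bp upstream of the start, which is at the 93.4 percentile of marked genes. Width and signal were both close between the replicates. The promoter is printed because the mm9 annotation places the start of Il6st elsewhere (below). CCAAT, in capitals, occurs at 65 and 33 bases before the start and was found, on either strand, in 38.2% of all promoters.
Il6st, chr13:112463820-112464069, plus strand: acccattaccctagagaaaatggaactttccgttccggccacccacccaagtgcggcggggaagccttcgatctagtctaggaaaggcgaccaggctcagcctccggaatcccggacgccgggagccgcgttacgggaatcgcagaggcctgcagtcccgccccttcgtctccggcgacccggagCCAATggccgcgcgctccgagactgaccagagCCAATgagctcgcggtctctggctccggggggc
The window held 33 CpG in its 300 bases, with an observed to expected ratio of 0.943.

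Jak1, the tyrosine kinase that phosphorylates the receptor chains and Stat3, lies on the minus strand of chromosome 4 (101151974 to 101265282). It had a single peak at chr4:101264139-101266046, with signals of 62.4 and 58.0 (60.2 ± 3.09, SD, n = 2) and 68.0 in the replicated list. That signal stood at the 91.6 percentile of marked genes, while the width of 1908 bp stood at the 32.0 percentile. In the replicates the domain was 1740 and 1497 bp wide, the narrowest of the 6 in both. Jak1 was thus strong and compact. No further peak of the replicated list lay in its 113 kb of gene body.

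Stat3, the transcription factor of the pathway, lies on the minus strand of chromosome 11 (100886806 to 100939594). It had the highest signal of the 6 in replicate 1, 67.1, and in the replicated list, 71.6, and 59.6 in replicate 2, where Socs3 stood higher (63.3 ± 5.28, SD, n = 2). Within each replicate the strong peak was short, at 950 and 931 bp. A second peak followed downstream, of 994 and 1182 bp and signals of 5.46 and 5.27, and the replicated list gives the pair as 1 peak of 2295 bp (chr11:100937361-100939655). An upstream peak of 633 bp, ending 226 bp before the start, had signals of 8.88 and 10.4 in the replicates and 11.1 in the replicated list. The shape was the same in both replicates, but weak peaks further into the gene joined the domain only in replicate 2, so that its width was 2734 bp in replicate 1 and 4892 bp in replicate 2. The long noncoding RNA gene Gm46295 starts on the other strand 1202 bp inside Stat3, within this domain, and the parts of both genes in the mark cannot be told apart. The Stat3 promoter is shown as the least CpG-rich of the starts with a strong peak, apart from the inner Pim1 start: its 300-base window held 15 CpG at an observed to expected ratio of 0.545, just under the median of all promoters. In capitals is a CCAAT match on the other strand, ATTGG, 79 bases before the start.
Stat3, chr11:100939541-100939790, minus strand: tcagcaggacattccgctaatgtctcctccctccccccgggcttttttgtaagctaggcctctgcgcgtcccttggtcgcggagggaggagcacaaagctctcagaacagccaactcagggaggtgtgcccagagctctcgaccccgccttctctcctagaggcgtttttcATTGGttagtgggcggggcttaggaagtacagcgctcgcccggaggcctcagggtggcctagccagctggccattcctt
The GC box GGGCGG, 69 bases before the Stat3 start, was found on either strand in 46.2% of all promoters.

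Socs3, which binds Il6st and the JAK kinases and damps the signal, lies on the minus strand of chromosome 11 (117966079 to 117970336). Its signal was 60.4 in replicate 1 and 62.4 in replicate 2 (61.4 ± 1.41, SD, n = 2), and 70.5 in the replicated list. The 1 peak that carried it, chr11:117961517-117970700, was 9184 bp wide, covered 100% of the gene of 4258 bp and ran on past its 3′ end. A domain over the whole gene was found at 4.29% of marked genes of all lengths. A short gene is covered more easily, and the share among genes as short as Socs3 is not given here. In the replicates this peak was 8819 and 9181 bp wide, and its summit lay 401 bp downstream of the start in each. A further peak of 4303 bp stood upstream, between 7976 and 3674 bp before the start, with a signal of 13.7. There the replicates differed more: replicate 1 had 3 separate peaks of up to 14.7 and replicate 2 had 2 of up to 7.28. The domain width was 8819 and 11677 bp in the replicates. In the pooled list weak peaks bridged the gaps on both sides and the domain grew to 21347 bp.

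Among the 6 genes only Socs3 had a match to TTCNNNGAA in its promoter window (8 windows searched, N for any base, the same on both strands). STAT factors are known to bind this pattern. The match, TTCTTAGAA in capitals, begins 154 bases before the start. The pattern occurred in 7.69% of all promoters, and a match is no evidence of binding. The stricter TTCCNGGAA occurred in 1.17% of all promoters and in none of the 8 windows, and TATAAA occurred in 12.6% and likewise in none.
Socs3, chr11:117969452-117969616, minus strand: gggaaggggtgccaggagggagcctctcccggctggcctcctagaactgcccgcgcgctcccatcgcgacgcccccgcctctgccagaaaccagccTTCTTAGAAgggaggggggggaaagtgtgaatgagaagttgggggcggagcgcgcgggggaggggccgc
The bases next to the Socs3 start are left out of this run because vM1 exons cover 77 of them.

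Pim1, a serine/threonine kinase gene induced by Stat3, lies on the plus strand of chromosome 17 (29490785 to 29496111, 5327 bp). Its main peak, chr17:29490683-29495090, began just before the start and covered most of the gene, with signals of 56.5 and 52.6 (54.6 ± 2.78, SD, n = 2) and 61.0 in the replicated list. Upstream, a separate peak of 1599 bp ended 412 bp before the start and had a signal of 34.4 (29.9 and 31.6 in the replicates). This was the strongest second peak beside any of the 6 starts. The joined domain was 6052 and 5883 bp wide in the replicates, 6316 bp in the replicated list, and covered 80.8% of the gene. Gm26885, a long noncoding RNA gene on the other strand, starts 759 bp inside Pim1 within the same domain, and here too the parts of both genes cannot be told apart. Pim1 has RefSeq starts at 29490785 and 29493085, with 42 and 5 CpG in their 300-base windows, and unlike at Lifr both lay under the same strong peak. GGGCGG occurred 7 times, on either strand, in the window of the first.

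**Figure D1:**
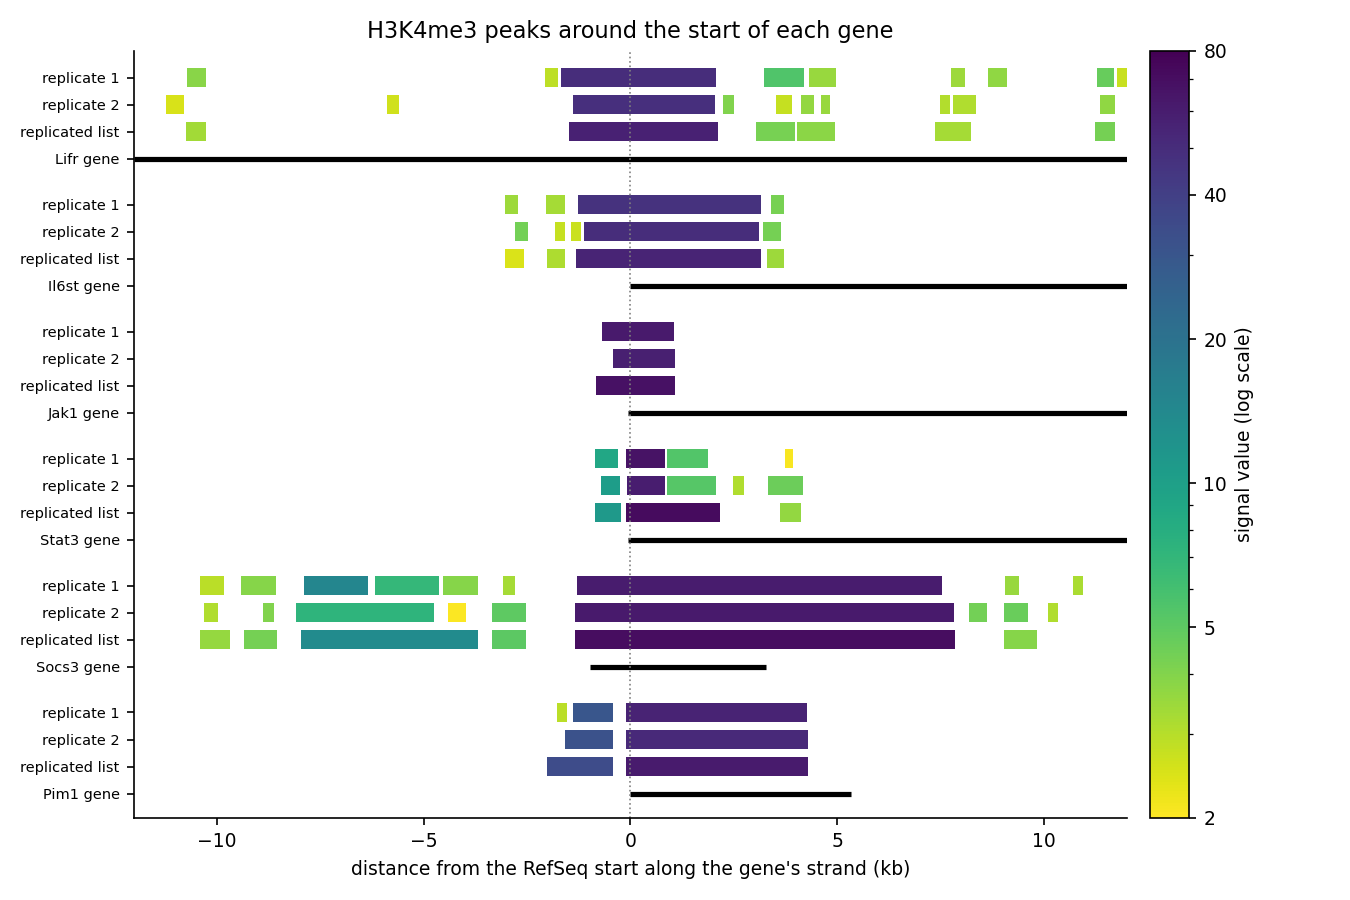
Peaks within 12 kb of the RefSeq start with the strongest peak (x axis, kb along the gene's strand) for each gene in replicate 1, replicate 2 and the replicated list; colour gives the signal value on a log scale and the black bar the gene of the gene table. The strong peak lies over the start in every row and covers the whole of Socs3. It is shortest at Stat3 in the replicates (950 and 931 bp) and at Jak1 in the replicated list (1908 bp).

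Ordered by their mean signal in the replicates, the genes ran Stat3, Socs3, Jak1, Pim1, Lifr, Il6st. The replicate values of Stat3 and Socs3 overlapped, as did those of Socs3 and Jak1 and those of Lifr and Il6st, so that these neighbours could not be put in order. Jak1 and Pim1 did not overlap, nor did Pim1 and Lifr. On mm10 Jak1, Stat3, Socs3 and Pim1 thus stood above both receptor chains in each replicate. In these lists, though not in those on mm9 (below), all 6 lay above the median of marked genes, which was 39.2 in replicate 1, 37.6 in replicate 2 and 43.9 in the replicated list. In the replicated list their percentiles among the 11923 marked genes were 95.3 for Stat3, 94.1 for Socs3, 91.6 for Jak1, 80.7 for Pim1, 72.6 for Lifr and 70.8 for Il6st. The median of the 6 was 64.5. These percentiles are descriptions, without a test.

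The order by width was another, Socs3, Il6st, Pim1, Lifr, Stat3, Jak1. Mean domain widths in the replicates were 10248 ± 2021 bp at Socs3, 6587.5 ± 233 at Il6st, 5967.5 ± 120 at Pim1, 5179.5 ± 1470 at Lifr, 3813 ± 1526 at Stat3 and 1618.5 ± 172 at Jak1 (SD, n = 2 each). Pim1 and Lifr overlapped in their replicate values, and so did Lifr and Stat3, while the other neighbours in this order did not. Within each replicate, though, Lifr was wider than Stat3, at 4140 against 2734 bp in replicate 1 and 6219 against 4892 bp in replicate 2. In the replicated list, where the median of marked genes was 2450 bp, Socs3 stood at the 96.4 percentile of width, Il6st at 92.9, Lifr at 92.3, Pim1 at 91.9, Stat3 at 65.7 and Jak1 at 32.0. In each of the 6 the domain reached further downstream of the start than upstream. Downstream it reached 7849 bp at Socs3, where it runs past the 3′ end of the gene, 4948 bp at Lifr, 4305 bp at Pim1, 3706 bp at Il6st, 2179 bp at Stat3 and 1084 bp at Jak1, against a median of 1409 bp for marked genes. In each of the 6 the summit of the strong peak lay downstream of the start, from 196 bp at Lifr to 537 bp at Pim1.

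**Figure D2:**
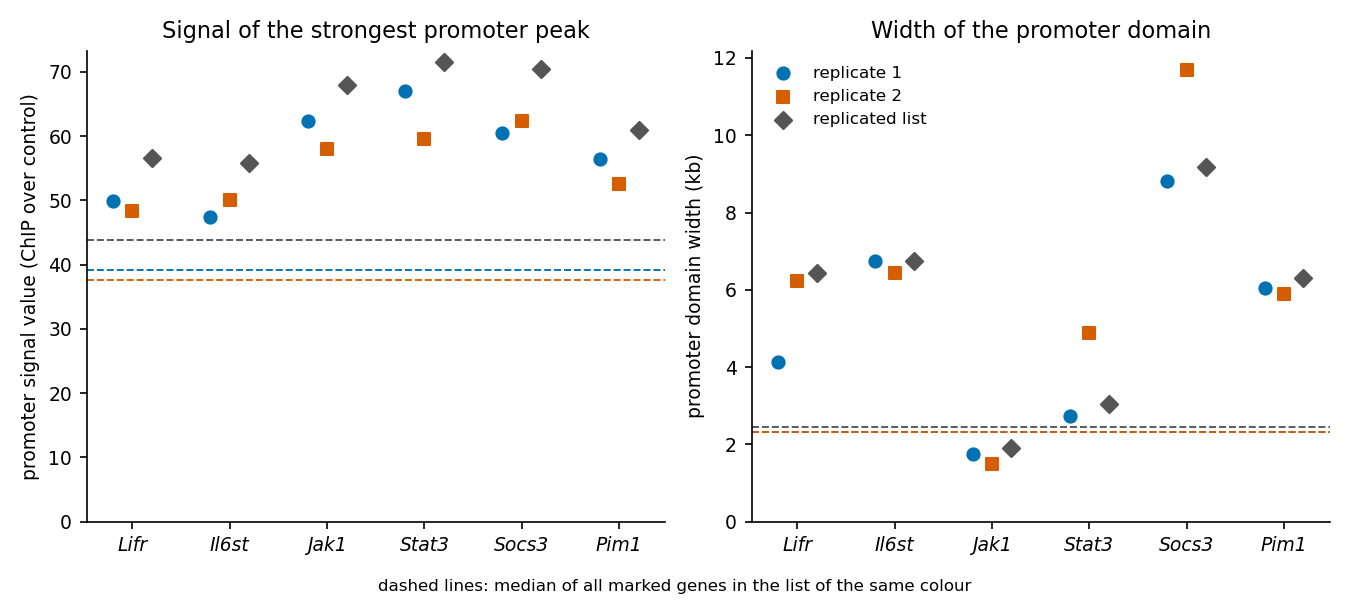
Promoter signal (left, y axis, ratio of ChIP over control) and domain width (right, y axis, kb) of the 6 genes (x axis) in replicate 1 (circles), replicate 2 (squares) and the replicated list (diamonds), with dashed lines for the median of all marked genes in each list. Every signal lies above the median of its list, and Jak1 alone lies below the medians in width.

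**Figure D3:**
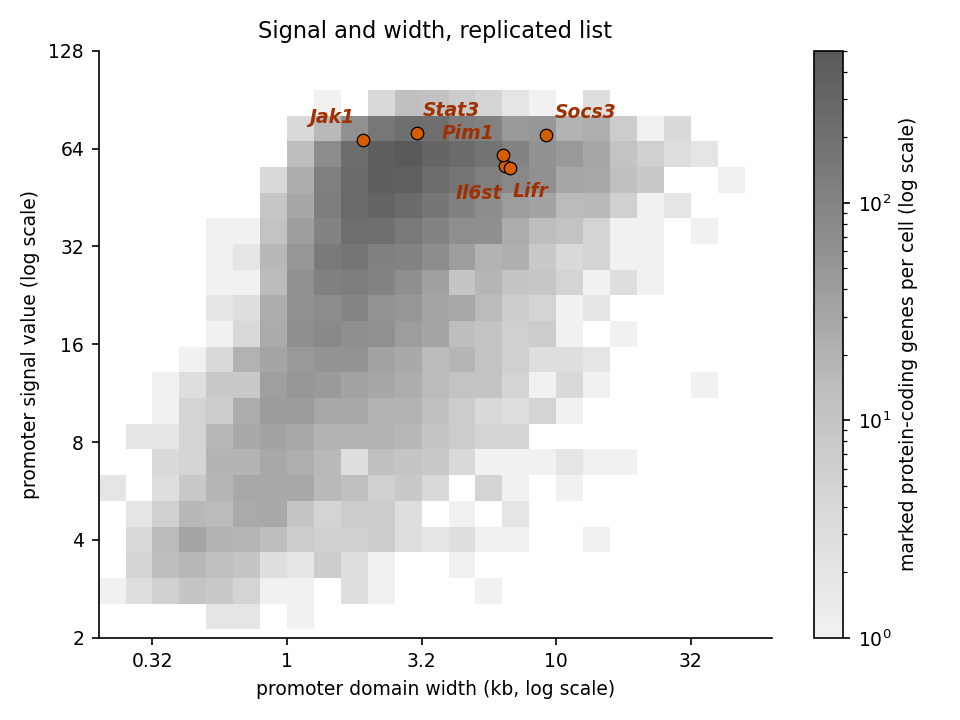
Promoter signal (y axis, log scale) against domain width (x axis, kb, log scale) in the replicated list, with the number of marked protein-coding genes in each cell in grey (log scale) and the 6 genes in orange. Lifr, Il6st and Pim1 lie close together near 6.3 to 6.8 kb, Jak1 at 1.91 kb and Stat3 at 3.04 kb are narrower, and Socs3 lies apart at 9.18 kb.

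The replicates placed the peaks alike. All 8 replicate 1 peaks in the windows of the 5 genes marked at the gene table's 5′ end were shared with replicate 2, also when an overlap of 50% of both peaks was required. Of the 17492 genes in the RefSeq promoter table, 11999 were marked in replicate 1 and 11855 in both replicates. These are counts of genes at RefSeq starts, with no overlap of the peaks required. The share of all promoter peaks that were shared is not given here, so the count of shared peaks alone says little of these genes. At the 6 RefSeq starts the strong peaks overlapped by 84.6% to 100% of the replicate 1 peak and by 96.1% to 100% of that in replicate 2, and their summits were 0 bp apart at Socs3 and 149 bp apart at Pim1, the lowest and highest shift. The log2 ratio of replicate 2 to replicate 1 in signal ran from -0.17 at Stat3 to 0.07 at Il6st. These lie well within the spread of all 11855 genes marked in both, from -0.44 at the 5th to 0.25 at the 95th percentile. In width, Stat3 (0.84) and Lifr (0.59) lay above the 95th percentile of 0.56 and Socs3 (0.40) within it. The wider value came from replicate 2 in these 3 genes, where weak flanking peaks joined the domain.

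Peaks in the gene body, away from the start, were found in 3 of the 6 genes, beside 43.6% of all genes when only the 5′ end of the gene table is left out and 39.9% when every RefSeq start is left out too. By the latter rule Lifr had 11 such peaks in the replicated list, Stat3 2 and Il6st 1, while Jak1, Socs3 and Pim1 had none. The count depended on the list and the distance: it was 4 in the pooled list and in replicate 2, where Jak1 had 1 peak, and 2 when peaks within 5 kb of the 5′ end were left out, which drops Il6st. The Lifr peaks were weak, with signals from 2.45 to 4.35 and widths from 276 to 974 bp, and lay on both sides of the marked start. Of the 11, 2 lay between 3040 and 4948 bp downstream of that start and formed the far end of the promoter domain, so that they also count in its width. Their number per length was at the 95.4 percentile of the 1866 genes of at least 100 kb, whose median was 2 peaks, and Jak1, of similar length, was at the 14.5 percentile. In their own lists the replicates had 15 and 18 peaks in the Lifr body, of which 12 of each overlapped a peak of the other. Most of these weak peaks were thus found in both replicates, while 3 of replicate 1 and 6 of replicate 2 were found in 1 only. The share of body peaks found in both replicates over all genes is not given here.

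**Figure D4:**
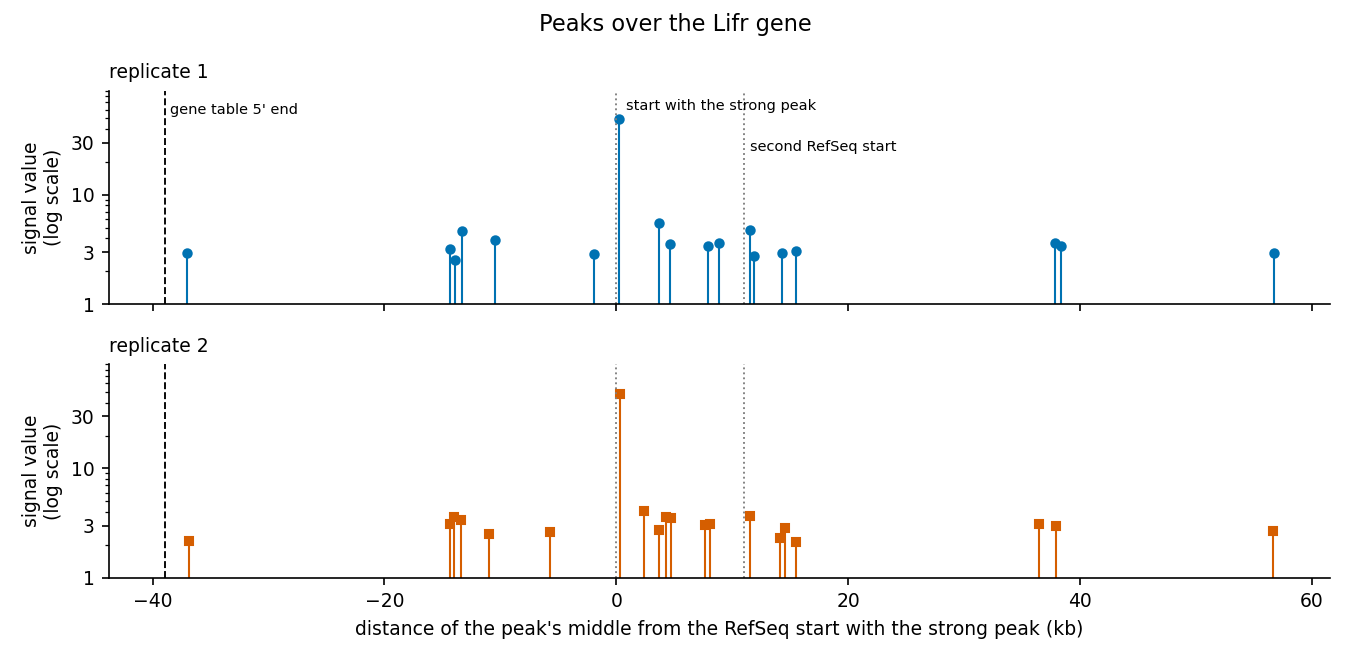
Signal value (y axis, log scale) of each peak over the Lifr gene against the distance of its middle from the start with the strong peak (x axis, kb), in replicate 1 and replicate 2; dotted lines mark the RefSeq starts and the dashed line the 5′ end of the gene table. The strong peaks of 49.9 and 48.4 tower over all others, none of which passes 5.49.

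The body peak of Il6st, with a signal of 3.46, lay between 3295 and 3706 bp from the start and formed the far end of its promoter domain. Of the Stat3 body peaks, 1 lay at 3617 to 4136 bp with a signal of 3.65. The other, at 33475 to 34571 bp, had a signal of 3.13 and was matched in both replicates. The gene table holds no exons, so exon or intron is given below from mm9.

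On mm9 the 6 genes have 30 distinct transcript starts (TSSs) in GENCODE vM1. Of these, 18 lay within 1 kb of a region of the pooled list, in 7 regions (17 in replicate 1 and 18 in replicate 2). The share of all vM1 TSSs marked is not given here, so these counts of TSSs alone say little of the 6 genes. Each of the 6 genes had at least 1 marked TSS, beside 73% of 20333 genes. Socs3 had 3 of 3 TSSs marked and Pim1 1 of 1, Lifr 2 of 3, Jak1 5 of 8 and Stat3 6 of 14. All the marked Jak1 TSSs shared 1 region at chr4:100936601-100938600, with signals of 47.2 and 55.3 in the replicates and 38.4 in the pooled list. In the pooled list Jak1 stood at the 97.6 percentile of marked genes, Pim1 at 64.5, Socs3 at 33.5, Lifr at 27.3, Stat3 at 19.6 and Il6st at 0.044. The Stat3 starts fell into the promoter region, with 4 TSSs, and a weak region of signal 2.90 inside the gene, with 2 TSSs of transcripts that retain an intron. The Socs3 region was 19.6 kb wide in the pooled list and 10.8 and 10.6 kb in the replicates. Joined across gaps under 1 kb, the Socs3 domain on mm9 spanned 21.2, 20.2 and 18.4 kb in these lists, so that it varied less between lists than on mm10. Of the 4 weaker Lifr regions in the pooled list, 3 lay in vM1 introns and 1 overlapped an exon, with signals from 2.05 to 3.25. That of 3.25 lay within 1 kb of the later RefSeq start, as matched to mm9 below, and overlapped no region in replicate 2. That of 2.05 overlapped no region in either replicate.

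Il6st changed its picture with the annotation. Its only vM1 TSS, at 113265216, had no region in replicate 1 and a region of signal 1.73 in replicate 2 and in the pooled list, below nearly all other marked genes. The 300-base RefSeq promoter of Il6st matched mm9 exactly and at 1 place, which puts that start 10938 bases upstream of the vM1 TSS, a step added after seeing the data. At this place a region of signal 17.99 stood in replicate 1 (chr13:113253001-113258000), of 13.0 in replicate 2 and of 10.8 in the pooled list. The region at the RefSeq start was thus stronger than that at the vM1 TSS, but below the median of marked genes in each list, which was 19.9 in replicate 1, 18.9 in replicate 2 and 15.9 in the pooled list. All 8 RefSeq promoters of the 6 genes matched mm9 exactly once. Each had a region in all 3 mm9 lists except the later Lifr start, which had none in replicate 2. Pim1 at 27.8 and 22.9, Socs3 at 23.7 and 23.4, Lifr at 17.3 and 14.9 and Stat3 at 18.3 and 11.8 followed Jak1 in the replicates. In the pooled list Pim1 had 18.8, Socs3 12.9, Lifr 11.6 and Stat3 9.91. Jak1 and Pim1 thus lay above the mm9 median in all 3 lists and Socs3 in the replicates only, while Lifr and Stat3, like Il6st, lay below it in all 3. Jak1 stood first in both mm9 replicate lists, whereas in mm10 the highest values were those of Stat3 in replicate 1 and Socs3 in replicate 2. The denominator of the mm9 ratio is not stated in any source read here, and no mm9 signal was set against an mm10 signal. Between builds, only the order of genes, their place against each list's own median and the Socs3 widths were set side by side.

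The rest of the pathway was read from a list of 65 other genes, chosen with earlier results of these data known. Of these, 56 (86.2%) were marked at the 5′ end of the gene table, beside the 66.6% of all genes, a difference given without a test. Their median signal was 42.3 and median width 3529 bp, against 43.0 and 2427 bp for all marked genes. By role, the count was 5 of 9 ligands, 4 of 5 receptors, 3 of 3 kinases, 5 of 6 STAT factors, 14 of 14 inhibitors, 5 of 5 adaptors and 20 of 23 targets.

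Marked ligands of the family had signals from 4.13 to 38.2, all under the median of 43.0 for all marked genes. Lif itself had a signal of 4.13 in the replicated list, and of 4.75 and 2.56 in the replicates. In a bulk list such a weak peak may come from few cells with the mark or from little of it in many, and these cannot be told apart. Clcf1, a ligand of the ciliary neurotrophic factor receptor, stood highest at 38.2, with Ctf1 (cardiotrophin 1) at 16.9 and Osm (oncostatin M) at 7.20. Il6 and Cntf had no peak at either kind of start and Il27, which the RefSeq promoter table does not list, none at its 5′ end, and Il11 had one of 21.6 at its RefSeq start only. Among the other receptors Il6ra had 21.9, Osmr 20.4, Il27ra 17.4 and Il11ra1 9.03, and Cntfr had a mark in mm9 only. Lifr at 56.7 and Il6st at 55.8 stood above each of these, as did the lower replicate value of each above both replicate values of the others. For Lifr this holds at its RefSeq start only. By the 5′ end of the gene table, the start used to count the roles, Lifr had no peak.

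The other JAK kinases were weaker than Jak1 (68.0): Tyk2 had 43.0, Jak2 39.5 and Jak3 30.1. Beside Stat3 at 71.6, Stat2, a factor of the interferon response, had 58.2, while Stat4 was marked at its RefSeq start only (16.4). Pias3, an inhibitor of Stat3, had 66.3 and Pias1 63.98, the strongest inhibitors apart from Socs3. Of the adaptors Grb2, which links receptors to Ras, had 67.0 and the phosphatase Ptpn11 61.5. Among the targets Klf5 (69.0) and Tfcp2l1 (63.6), transcription factors of the naive stem cell state, stood above Pim1 (61.0), and Fgb and Hp, genes of the acute phase in the liver, had no peak at the 5′ end. Targets had the broadest domains of the roles, with a median of 6573.5 bp, close to the 6316 bp of Pim1.

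**Figure D5:**
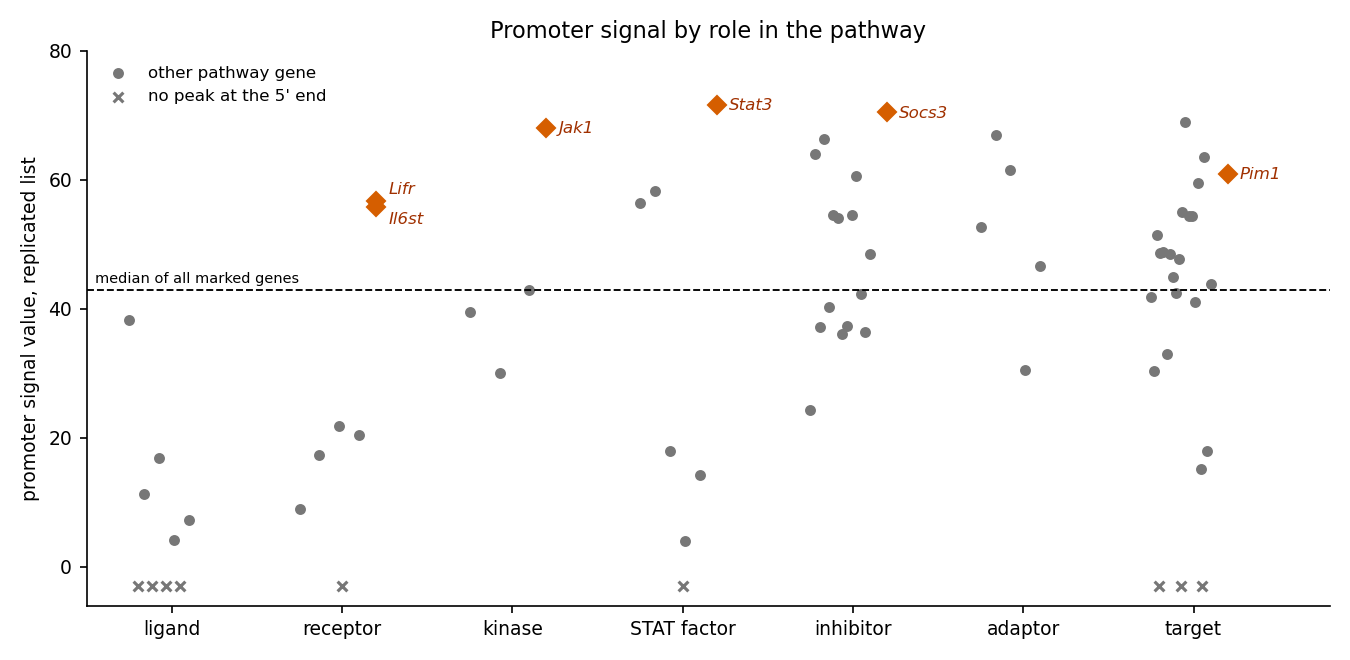
Promoter signal in the replicated list (y axis) by role (x axis) for 65 other pathway genes (grey; crosses for genes without a peak at the 5′ end, including Il11 and Stat4) and the 6 genes (orange diamonds, Lifr at its RefSeq start); the dashed line is the median of 43.0 over all marked genes. Lifr, Il6st, Jak1 and Stat3 lie above the other genes of their role, and so does Socs3, while 2 targets lie above Pim1.

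Genes with the pattern most like each member were sought over 4 values, log2 signal and log2 width in each replicate, among the 11855 genes marked in both. For Jak1 they were Atp6v0b and Bloc1s5 (distances of 0.045 and 0.046), and for Il6st Msl2 and Abcc4 (0.055 and 0.061). Pim1 was nearest to Etnk1 and Actn1 (0.086 and 0.094) and Socs3 to Mlec and Sesn2 (0.092 and 0.097). Josd1 and Atp6v0c were nearest to Lifr (0.14 and 0.17), and Rnf114 and Pex13 to Stat3 (0.23 and 0.24). Stat3 thus had the most distant nearest neighbour of the 6.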

How the data were processed

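The authors deposited narrowPeak lists on mm10 and broadPeak lists on mm9, per the labels. Neither the aligner nor the peak caller is named in the sources used here. The deposited mm10 signal is a ratio (ChIP over control), and −log10 p-values and q-values come with each of the authors' peaks. The deposited mm9 lists hold a ratio whose denominator is not stated, and a plain p-value and q-value. Edges of mm9 regions lie on a grid of 200 bp. Percentiles and medians of signal were taken within a list. Means, SDs, ratios and the count of moved values compare signals between mm10 lists, without scaling.

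Of 21900 protein-coding genes in the GRCm38.p6 gene table, 21536 had a strand, 17492 from the RefSeq promoter table and 4044 from GENCODE vM1, and 364 were left out. Promoter windows ran 1 kb to either side of a start, an overlap of 1 bp counted, and peaks under 1 kb apart were joined into domains. RefSeq promoters were matched to the mm9 genome (NCBIM37) by exact sequence, with no conversion of coordinates. Overlap functions were tested on simulated data (Python 3.11.15, pandas 2.3.3, numpy 2.4.6). Values are described by counts, medians and percentiles, with no test, since there is 1 group.

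The 6 genes, the pathway and marker lists and the rules were chosen with earlier results of these data known. Named were the 6 genes, all ligands and receptors, per role the 2 strongest and the first 2 by alphabet that had no peak, the 2 genes most like each of the 6, and genes starting within their domains. Some genes this rule takes are not reported here. Jak3 and the markers Pou5f1, Sox2, Nanog and Esrrb fall outside this rule and were chosen after their values were seen. Alternatives were other lists, windows, joining distances, a q-value under 1e-05, and each replicate alone.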

Additional observations from a re-analysis of the deposited data

How the results depend on the processing

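The number of marked genes among the 6 was 5 at the gene table's 5′ end in the pooled list, in each replicate and at a q-value under 1e-05. It was 6 with a window of 2 kb or every RefSeq start, and 4 when the summit had to lie in the window, since the Socs3 summit lies 1367 bp inside the gene table's 5′ end. The median signal of the marked genes was 68.0 and ran from 58.0 to 60.4 with 1 replicate left out. It was 64.5 with a window of 2 kb, where Lifr enters only by a weak peak of signal 3.36. With every RefSeq start, where Lifr enters by its strong peak of 56.7, it was 64.5 too. Their median domain width was 6316 bp, ran from 5883 to 6052 bp with 1 replicate left out, and was 5029 bp at a q-value under 1e-05, 4677 bp with a window of 2 kb and 4408 bp without joining. Genes with a body peak numbered 3 of the 6, 3 and 4 with 1 replicate left out, 4 in the pooled list and 2 beyond 5 kb from the 5′ end. Other pathway genes marked numbered 52 to 57 over all alternatives. Of 36 values of single genes under the pooled list and each replicate alone, 16 moved by less than 1 SD. That SD comes from the same 2 replicates, and the pooled list holds all 62128 replicated peaks unchanged. Signals in the pooled list were thus the same in advance, and the count is no measure of robustness. Signals in single replicates were lower than in the replicated list for each of the 6 genes; the cause was not tested. No paired analysis was possible because there is 1 group and no test.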
